A study of Mus musculus with 9 samples.

Results

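7SK is an abundant nuclear RNA made by RNA polymerase III that holds the elongation kinase P-TEFb in an inactive particle. P-TEFb consists of the kinase CDK9 and a cyclin T, and it releases paused RNA polymerase II by phosphorylating the polymerase tail and the pausing factors. In the particle, MEPCE caps the 5′ end of 7SK, LARP7 binds its 3′ end, and HEXIM1 binds the 5′ hairpin and inhibits the kinase. The 7 genes described here are this RNA (Rn7sk), the 3 proteins that bind it (Hexim1, Larp7 and Mepce), the kinase (Cdk9) and its 2 cyclins (Ccnt1 and Ccnt2). They were chosen by name, and selected on their raw counts in the groups of the main table, out of 55401 genes, and all 7 passed the filter on low counts, Rn7sk through its WT_EV libraries.

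RNA was sequenced from XEN cells, the stem cell line of extra-embryonic endoderm, from a Mus musculus molossinus X Mus musculus cross. The groups were DXp (n = 2), labelled a paternal Xist deletion, DXp_DXm (n = 2), labelled a homozygous Xist deletion, WT_clone (n = 2) and WT_EV (n = 3), both labelled WT. The study asked what deleting sequence upstream of Xist does in XEN cells. The cells of DXp, DXp_DXm and WT_EV were labelled female, and no sex label was given for WT_clone. The titles carry D1 for both DXp libraries and D3 for both DXp_DXm libraries, so if each names 1 line, line and genotype cannot be told apart. The design text calls the 2 libraries of each deletion biological replicates, whereas nothing says so for WT_EV, where p-values may measure technical spread only. The labels give 2 makes of stranded library kit without saying which library had which, and give no RNA selection step, so a difference in preparation and the genotype cannot be told apart.

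The libraries held 24586135 to 29335803 counts in DXp, 25589912 to 27334893 in DXp_DXm and 14352719 to 19833044 in WT_EV. Of 10 extra-embryonic endoderm markers, 9 or 10 reached 1 CPM (counts scaled to a common library size) in every one of these 7 libraries, and the summed level of each list of embryonic stem cell, trophoblast and fibroblast markers was at most 1.85 CPM. The endoderm markers summed to 7425 and 17109 CPM in DXp, 14152 and 11224 CPM in DXp_DXm, and 21317 to 28882 CPM in WT_EV; Col4a1 was at 0 in DXp replicate 1. The part of this difference in the values below was not tested. In bulk RNA, fewer cells of a type and less RNA per cell cannot be told apart. Xist itself, the gene named by the genotype labels, took 5.83% and 5.98% of the counts shared by both tables in DXp, 2.12% and 3.49% in DXp_DXm, 1.34% and 2.10% in WT_clone, and 0.492%, 0.709% and 1.13% in WT_EV. Against WT_EV the log2 change of Xist was 3.94 in DXp and 2.75 in DXp_DXm, and 1.61 and 0.99 with offsets for GC content and length. Against WT_clone DXp_DXm was at 0.79 (edgeR adjusted p = 0.189), and at 0.03 with offsets. Lower Xist was thus not seen in the libraries labelled as deletions.

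The Rn7sk gene lies at chr9:78175303-78175633 on the minus strand (GRCm38) and is annotated as a single RNA of 331 bases with 58.0% GC. The 2 ends of the RNA are shown because they are where the proteins described below meet it. They are taken from GENCODE M21, 5′ to 3′, written as DNA. In the first 90 bases (chr9:78175544-78175633) capitals mark every GATC. In human 7SK a copy of this segment pairs with another copy to form the HEXIM site. Which of the marked copies pair was not examined here. In the last 40 bases (chr9:78175303-78175342) capitals mark the closing run of T, in the U-rich end that LARP7 holds.
7SK bases 1 to 90: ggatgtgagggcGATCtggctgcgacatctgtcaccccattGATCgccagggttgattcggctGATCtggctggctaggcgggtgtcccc
7SK bases 292 to 331: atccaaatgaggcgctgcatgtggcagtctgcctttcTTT
GATC, which reads the same on both strands, started at bases 13, 42 and 64. Of 139864 annotated transcripts of at least 90 bases, 21.3% held GATC at least once in their first 90 bases and 0.241% held it 3 or more times.

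Rn7sk was nearly absent from the libraries of both deletions. It had 3 and 4 counts in DXp, 2 and 7 counts in DXp_DXm, and 255029, 194648 and 157188 counts in WT_EV. In the WT_EV libraries this 1 gene took 1.67%, 0.981% and 1.10% of all counts. The groups did not come near each other: every deletion library was in single figures. The mean level was 0.154 ± 0.00074 CPM in DXp, 0.179 ± 0.136 CPM in DXp_DXm and 10664 ± 3251 CPM in WT_EV (SD, n = 2, 2 and 3). By counts over totals, Rn7sk was 94500-fold lower in DXp than in WT_EV, with an exact 95% interval of 45865-fold to 235045-fold, and 72141-fold lower in DXp_DXm, with an interval of 38002-fold to 157767-fold. With offsets for GC content and length the fitted log2 change was -11.01 in DXp (interval -12.31 to -9.72) and -11.20 in DXp_DXm (interval -12.38 to -10.02), against -16.03 and -15.80 without, so the size of the difference depends strongly on this setting. The intervals of the ratios cover counting error only, since reads without molecular identifiers are not independent molecules.

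No other annotated gene overlaps Rn7sk, and the nearest, C920006O11Rik, lies 281 bases away. C920006O11Rik had 6 and 10 counts in DXp, 12 and 18 in DXp_DXm, and 3, 3 and 9 in WT_EV. Its WT_EV counts were too low for a fall in this neighbour to be seen. The genome carries many partial copies of 7SK, and 11 annotated genes matched at least 200 of its bases at 90% identity or more. One of them, Gm24447, matches bases 1 to 241 exactly, so reads could be split between it and Rn7sk. Summed over the 11 copies there were 0 and 1 counts in DXp, 0 and 1 in DXp_DXm, and 124, 78 and 49 in WT_EV. The copies were thus low in the deletion libraries too, and they held few counts beside those of Rn7sk.

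Other short RNAs that lack a poly(A) tail were low in the same libraries. A list of 20 such RNAs, of which 16 were tested, took 0.00108% and 0.000712% of all counts in DXp, 0.000645% and 0.000772% in DXp_DXm, and 0.121%, 0.0669% and 0.0687% in WT_EV. Most of the 16 passed the filter on low counts through WT_EV, where they are high, so how many of them were called lower is no support and is not counted here.

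The RNAs of that list have unrelated jobs. Rny3, the RNA of Ro particles, had 5 and 10 counts in DXp, 10 and 9 in DXp_DXm, and 4653, 2041 and 1572 in WT_EV. Rnu12, the U12 RNA of the minor spliceosome, had 0 and 2 counts in DXp, 1 and 2 in DXp_DXm, and 1601, 1584 and 877 in WT_EV. Scarna13, a Cajal-body guide RNA, had 0 counts in all 4 deletion libraries, and 3417, 1860 and 2339 in WT_EV. Each of these passed the filter on low counts through WT_EV, so the gaps are a description and nothing is read from them. Rn7s1 and Rn7s2, 2 copies of the signal recognition particle RNA, were at 0 in every deletion library as well, with up to 51 and 273 counts in WT_EV. The 1 RNA that was higher, Rnu73b, had 141 and 128 counts in DXp, 74 and 115 in DXp_DXm, and 31, 40 and 14 in WT_EV. Rmrp, Terc and Scarna10 were listed at 0 in all 7 libraries.

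The WT_clone libraries, which carry no deletion, were low in short RNAs too. Over 768 small RNA genes held in both tables, the share of counts was 0.0253% and 0.0213% in DXp, 0.0238% and 0.0189% in DXp_DXm, 0.0117% and 0.0142% in WT_clone, and 0.290%, 0.240% and 0.261% in WT_EV. The WT_clone shares were the lowest of the 4 groups. Scarna6 had 4 and 3 counts in DXp, 4 and 8 in DXp_DXm, 12 and 3 in WT_clone, and 220, 235 and 199 in WT_EV. It was tested only because of its WT_EV libraries, so its levels are a description. Rn7sk was not analysed in WT_clone, whose table was held only in part. What part the preparation of the libraries has in the Rn7sk difference was not tested.

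**Figure D1:**
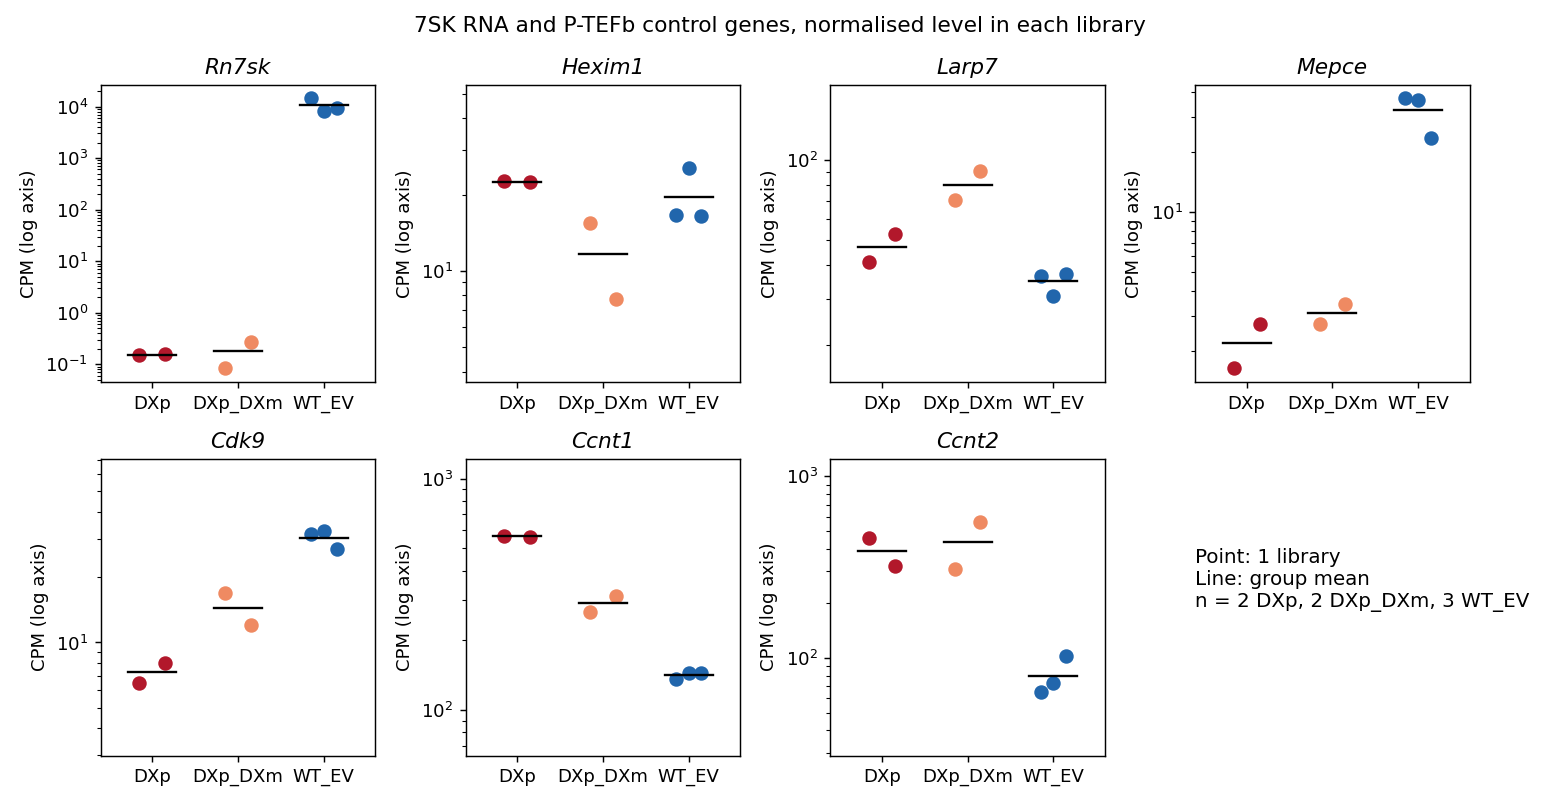
Level of each of the 7 genes in CPM on log axes, for DXp, DXp_DXm and WT_EV; each point is 1 library and each line the group mean. Rn7sk lies below 1 CPM in every deletion library and at 8212 CPM or more in every WT_EV library, Mepce and Cdk9 are lower and Ccnt1 and Ccnt2 higher in all deletion libraries, and Hexim1 overlaps between groups.

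The 6 protein-coding genes moved in different directions. Since the 7 genes were chosen with these values known, their changes against WT_EV are given as a description, with standard errors and intervals but no test. Together with Rn7sk, 3 of the 7 had a fitted level at least 2-fold lower in DXp than in WT_EV (background 42.5% of tested genes) and 2 at least 2-fold higher (background 32.3%). In DXp_DXm 3 were at least 2-fold lower (background 38.6%) and 3 at least 2-fold higher (background 30.7%). Nothing is read from these counts, which the choice of genes used. The share of all tested genes whose groups did not overlap was not counted, so nothing is read from such gaps below either. Of all tested genes 72.3% were called in DXp and 66.8% in DXp_DXm against WT_EV. Leaving out single libraries took Cdk9 in DXp_DXm to between -1.25 and -0.84 and Ccnt1 in DXp_DXm to between 0.92 and 1.22, so both cross 2-fold.

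Mepce, which caps the 5′ end of 7SK and stays bound to it (chr5:137781906-137787655, minus strand), was the protein-coding gene of the set with the lowest level relative to WT_EV. It had 1.64 and 2.74 CPM in DXp, 2.74 and 3.46 CPM in DXp_DXm, and 37.3, 36.5 and 23.6 CPM in WT_EV. All deletion libraries lay well below all WT_EV libraries. The log2 change was -3.88 in DXp (SE 0.36, 95% interval -4.67 to -3.09) and -3.39 in DXp_DXm (SE 0.35, interval -4.16 to -2.61). Its transcript is the richest in GC of the 6, at 59.7%. With offsets for GC content and length the change was 0.05 in DXp (interval -0.62 to 0.72) and 0.38 in DXp_DXm (interval -0.28 to 1.04). Both of these intervals included 0.

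Larp7, the La-related protein that protects the 3′ end of 7SK (chr3:127536714-127553349, minus strand), did not share the low level of Mepce. It had 41.3 and 52.7 CPM in DXp, 70.2 and 90.5 CPM in DXp_DXm, and 36.5, 30.8 and 37.2 CPM in WT_EV. The groups did not overlap, with DXp_DXm highest and DXp just above WT_EV. The log2 change was 0.43 in DXp (SE 0.25, interval -0.12 to 0.98) and 1.21 in DXp_DXm (SE 0.25, interval 0.65 to 1.76). With library totals in place of trimmed-mean scaling the DXp value was -0.04, on the other side of 0, while DXp_DXm kept its sign at 0.88, and with offsets the values were 0.09 and 0.69. There are 5 microRNA genes that lie inside Larp7 on the other strand, and the strand setting of the counting is not given in the sources used here.

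Hexim1, the inhibitor that 7SK turns on (chr11:103116231-103119725, plus strand), had DXp libraries that overlapped WT_EV. It had 22.7 and 22.4 CPM in DXp, 15.5 and 7.74 CPM in DXp_DXm, and 16.6, 25.5 and 16.4 CPM in WT_EV. The DXp libraries fell inside the WT_EV range, and those of DXp_DXm below it, with replicate 2 well below. The log2 change was 0.21 in DXp (SE 0.36, interval -0.593 to 1.004) and -0.75 in DXp_DXm (SE 0.36, interval -1.55 to 0.05). Both intervals include 0. With library totals the values were -0.28 in DXp and -1.08 in DXp_DXm (interval -1.91 to -0.25), with offsets 0.60 and -0.72, and without DXp_DXm replicate 1 the DXp_DXm value was -1.25 (interval -2.14 to -0.37). Hexim2, the paralogue that can stand in for Hexim1, was measured at 1.02 and 0.579 CPM in DXp, 0.415 and 0.628 CPM in DXp_DXm, and 5.40, 4.98 and 4.20 CPM in WT_EV.

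Cdk9, the kinase subunit (chr2:32705784-32713076, minus strand), was lower in both deletions. It had 6.49 and 8.07 CPM in DXp, 16.9 and 12.1 CPM in DXp_DXm, and 31.9, 32.7 and 27.1 CPM in WT_EV. The 3 groups did not overlap, with DXp lowest. The log2 change was -2.07 in DXp (SE 0.29, interval -2.71 to -1.43) and -1.07 in DXp_DXm (SE 0.28, interval -1.71 to -0.44). With the offsets Cdk9 stayed lower, at -1.37 in DXp (interval -1.92 to -0.82) and -0.69 in DXp_DXm (interval -1.24 to -0.15).

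The cyclins went the other way from the kinase they bind. Ccnt1, the cyclin T found in most P-TEFb (chr15:98538689-98570923, minus strand), had 567.6 and 559.8 CPM in DXp, 266.2 and 312.1 CPM in DXp_DXm, and 136.4, 144.8 and 144.9 CPM in WT_EV. The groups did not overlap, with DXp highest. Its log2 change was 1.99 in DXp (SE 0.21, interval 1.53 to 2.45) and 1.03 in DXp_DXm (SE 0.21, interval 0.57 to 1.48). With offsets these were 0.46 and -0.28, so the DXp_DXm value changed sign. An antisense gene overlaps Ccnt1, 9330020H09Rik, with 5 and 9 counts in DXp, 7 and 12 in DXp_DXm, and 70, 87 and 48 in WT_EV, against 2416 or more for Ccnt1 in every library.

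Ccnt2, the other cyclin T (chr1:127774164-127808061, plus strand), had 458.2 and 320.4 CPM in DXp, 308.7 and 561.5 CPM in DXp_DXm, and 64.7, 72.9 and 102.9 CPM in WT_EV. All deletion libraries lay above all WT_EV libraries, and the 2 deletions overlapped. The log2 change was 2.28 in DXp (SE 0.32, interval 1.57 to 2.99) and 2.44 in DXp_DXm (SE 0.32, interval 1.73 to 3.15). With offsets it was 0.07 (interval -0.50 to 0.64) and 0.68 (interval 0.11 to 1.24). Ccnt2 has the longest exons of the set and the lowest GC content, 12345 bases and 42.1%.

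**Figure D2:**
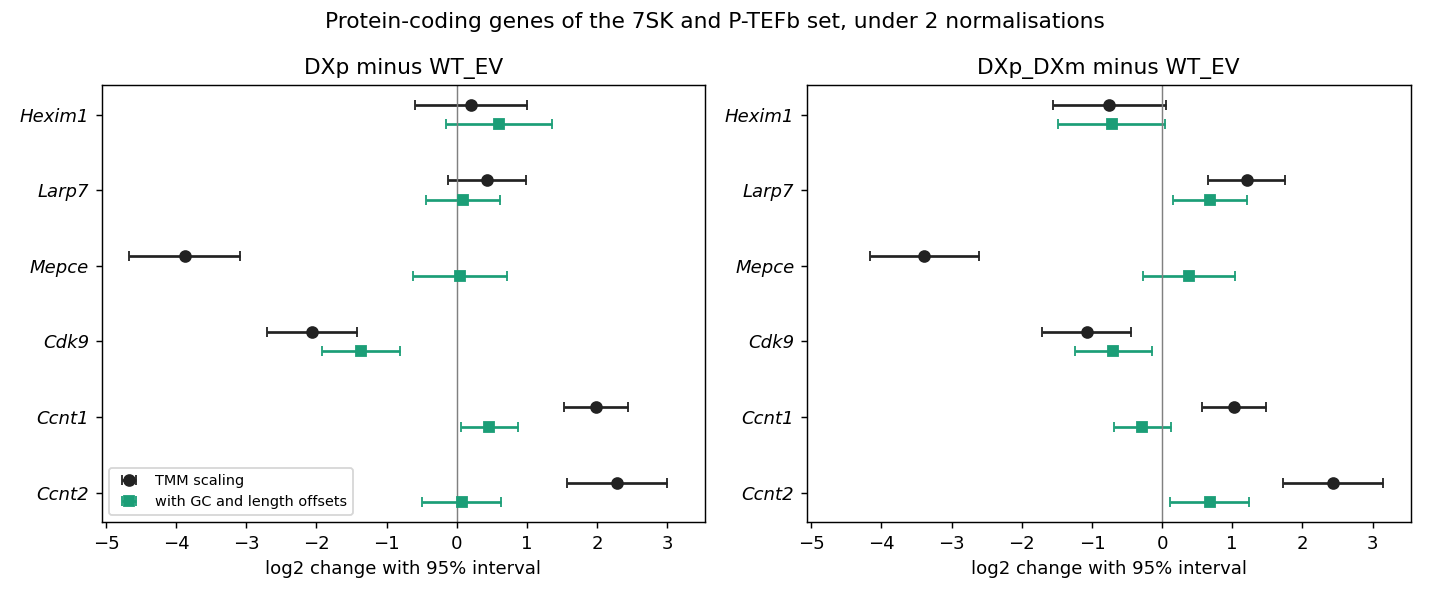
Log2 change with its 95% interval for the 6 protein-coding genes, in DXp (left) and DXp_DXm (right) against WT_EV, with trimmed-mean (TMM) scaling as circles and with offsets for GC content and length as squares. With offsets Mepce moves from -3.88 and -3.39 to 0.05 and 0.38, while Cdk9 stays below 0 in both panels.

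GC content moved with these differences across the whole table. Among protein-coding genes the median log2 change in DXp against WT_EV was 2.39 for those under 42% GC, 1.27 at 42 to 48%, -0.81 at 48 to 54% and -3.40 over 54%. In DXp_DXm the medians were 1.97, 1.15, -0.50 and -2.99. Ccnt2, Ccnt1 and Larp7 belong to the second class, Hexim1 and Cdk9 to the third and Mepce to the highest. Mepce at -3.88 and -3.39 was near its class median, Cdk9 at -2.07 in DXp and -1.07 in DXp_DXm was below that of its class, and Ccnt2 at 2.28 and 2.44 was above. The part of GC content in the members' values beyond the offsets was not tested.

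**Figure D3:**
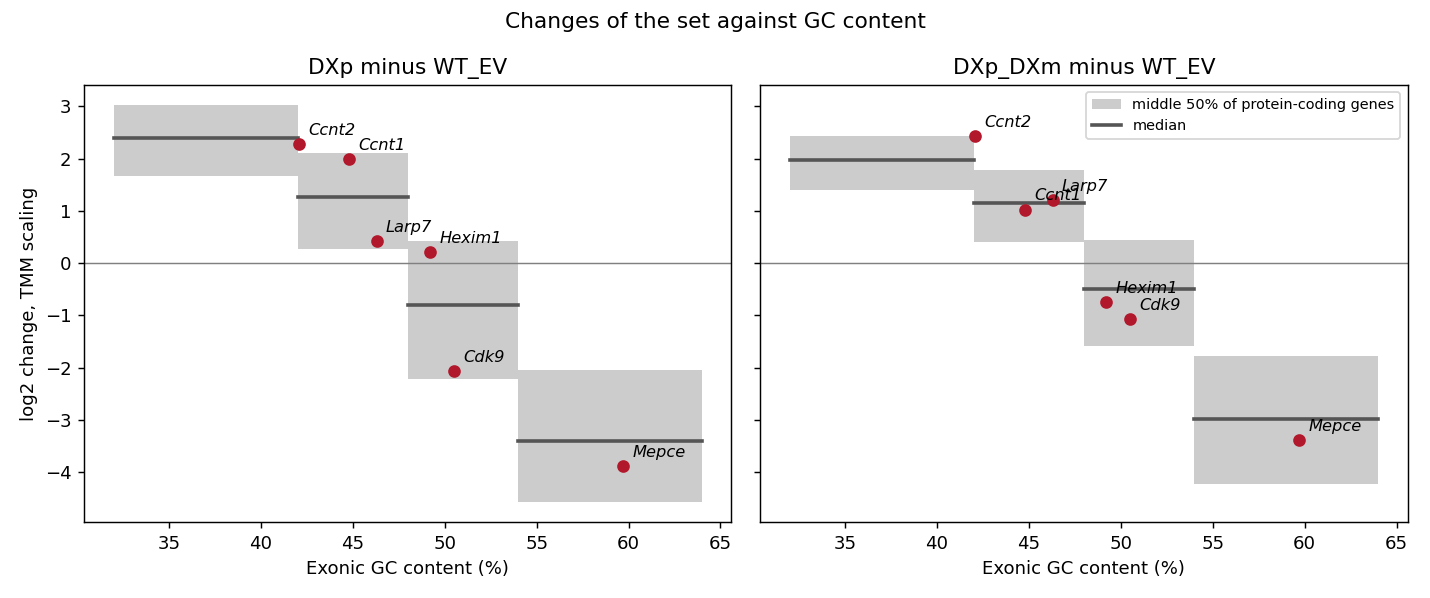
Log2 change against exonic GC content for the 6 protein-coding genes (points) in DXp (left) and DXp_DXm (right) against WT_EV; bars give the median and grey boxes the middle 50% of protein-coding genes in each GC class, with the open classes at both ends drawn to 32 and 64%. The class medians step down from 2.39 to -3.40 in DXp and from 1.97 to -2.99 in DXp_DXm. Ccnt2 lies above the box of its class in both panels, at the edge next to the class of lower GC.

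Levels can be compared between genes only per length, here in CPM per kilobase of exon. In DXp the order was Ccnt1 at 61.6 ± 0.60, Ccnt2 at 31.5 ± 7.90, Larp7 at 19.9 ± 3.42, Hexim1 at 6.45 ± 0.07, Cdk9 at 1.58 ± 0.24, Mepce at 0.616 ± 0.220 and Rn7sk at 0.465 ± 0.002 (SD, n = 2). Only Mepce and Rn7sk overlapped there. In DXp_DXm Ccnt2 at 35.2 ± 14.5, Larp7 at 34.0 ± 6.04 and Ccnt1 at 31.6 ± 3.55 overlapped, as did Hexim1 at 3.33 ± 1.57 and Cdk9 at 3.15 ± 0.739, and Mepce at 0.872 ± 0.143 and Rn7sk at 0.541 ± 0.410. In WT_EV Rn7sk came first at 32218 ± 9823, followed by Ccnt1 at 15.5 ± 0.532, Larp7 at 14.7 ± 1.49, Mepce at 9.13 ± 2.17, Cdk9 at 6.62 ± 0.660, Ccnt2 at 6.50 ± 1.63 and Hexim1 at 5.59 ± 1.49 (n = 3). Apart from Rn7sk, the members of WT_EV lay within a narrow range in which each overlapped its neighbour in at least 1 library, except Larp7 and Mepce.

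Ratios taken within a library do not depend on how libraries are scaled, but those given here hold no offsets for GC content and length. Ccnt1 over Cdk9, cyclin over kinase per length, was 44.0 and 34.9 in DXp, 7.922 and 12.99 in DXp_DXm, and 2.16, 2.23 and 2.698 in WT_EV. Ccnt2 over Cdk9 was 26.4 and 14.8 in DXp, 6.82 and 17.3 in DXp_DXm, and 0.759, 0.833 and 1.42 in WT_EV. In WT_EV the transcripts of kinase and cyclins were thus within a few-fold of each other. In the deletion libraries the cyclins were in excess by these ratios without offsets. Larp7 over Mepce was 37.9 and 28.9 in DXp, 38.5 and 39.3 in DXp_DXm, and 1.47, 1.27 and 2.37 in WT_EV. Hexim1 over Cdk9 was 4.61 and 3.66 in DXp, 1.21 and 0.844 in DXp_DXm, and 0.688, 1.03 and 0.802 in WT_EV, so inhibitor over kinase stood apart in DXp while DXp_DXm overlapped WT_EV. Hexim1 and Cdk9 are of the same GC class, whereas the other ratios set genes of different GC content against each other. With offsets, the log2 changes in DXp against WT_EV were 0.09 for Larp7, 0.05 for Mepce, 0.46 for Ccnt1, 0.07 for Ccnt2 and -1.37 for Cdk9. In DXp_DXm against WT_EV they were 0.69, 0.38, -0.28, 0.68 and -0.69 in the same order. Hexim1 with offsets was at 0.60 in DXp and -0.72 in DXp_DXm.

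**Figure D4:**
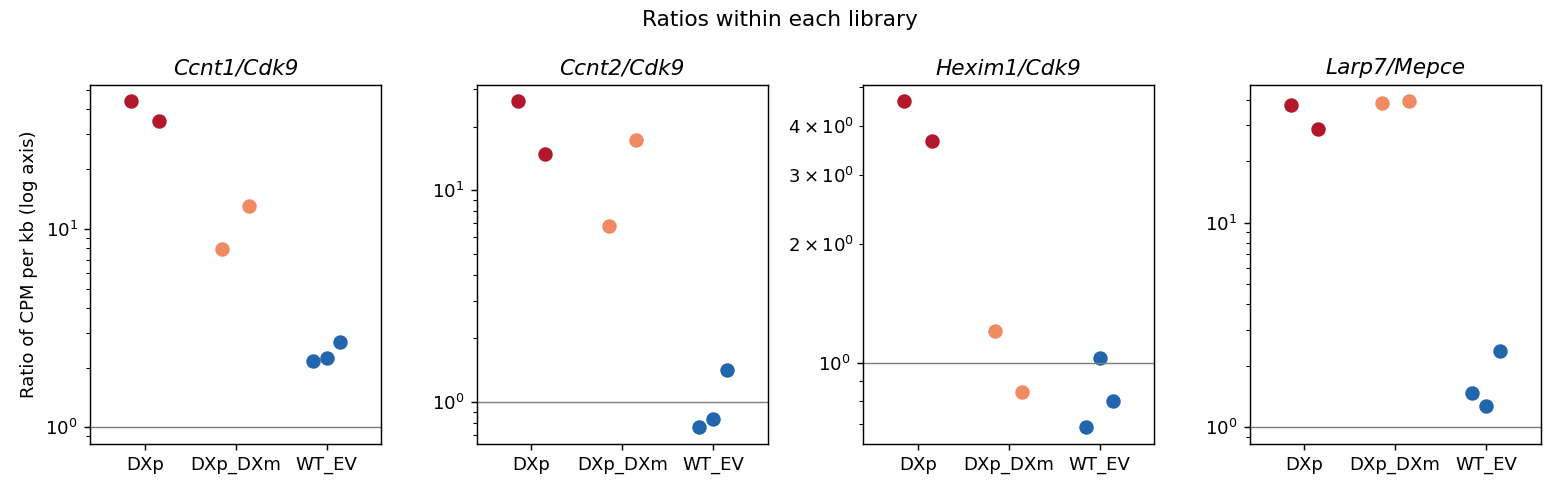
Ratio of CPM per kilobase between pairs of the genes within each library, on log axes with a line at 1, for DXp, DXp_DXm and WT_EV; each point is 1 library. Ccnt1 over Cdk9 is 34.9 or more in DXp, 7.922 and 12.99 in DXp_DXm, and at most 2.698 in WT_EV.

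The 2 deletions were compared with each other, which sets the homozygous against the paternal deletion. The 7 genes were chosen on the counts of these libraries too, so their values here are again a description. In edgeR none of the 7 passed an adjusted p of 0.05, where 0.444% of 15331 tested genes did, and 4 of the 7 had an unadjusted p under 0.05, where 20.8% of all genes did. DESeq2 called 1 of the 7, Ccnt1. Nothing is read from these counts.

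Ccnt1 had a log2 change of -0.96 in DXp_DXm against DXp (SE 0.22, interval -1.46 to -0.46), and was lower in 2 of 2 libraries. Cdk9 was at 0.99 (SE 0.32, interval 0.29 to 1.70), and was higher in 2 of 2 libraries. By the fitted changes against WT_EV, Cdk9 and Ccnt1 both lay closer to WT_EV in DXp_DXm than in DXp, as did Mepce and Rn7sk. The others lay farther: Larp7 was at 0.43 in DXp and 1.21 in DXp_DXm, Hexim1 at 0.21 and -0.75, and Ccnt2 at 2.28 and 2.44. Protein-coding genes in general were closer too, by the median of every GC class. In the lowest class it was 2.39 in DXp and 1.97 in DXp_DXm, in the highest -3.40 and -2.99. Whether kinase and cyclin differ from this general pattern was not tested.

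Larp7 was at 0.77 (SE 0.27, interval 0.17 to 1.38) and Hexim1 at -0.95 (SE 0.39, interval -1.83 to -0.08). The remaining 3 had intervals on both sides of 0. Mepce was at 0.49 (interval -0.39 to 1.37), Ccnt2 at 0.16 (interval -0.62 to 0.94) and Rn7sk at 0.22 (interval -1.46 to 1.91). Of these, Rn7sk rests on 9 counts in DXp_DXm and 7 in DXp, so a difference of a few-fold was not detectable at this depth. The direction of Rn7sk and Ccnt2 turned when 1 library was left out: without DXp_DXm replicate 2 they were -0.85 and -0.33.

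Cdk9 and Ccnt2 are the 2 members in the held part of the WT_clone table, so they could be set against wild-type clones that the choice of genes did not use. The fit used all 9 libraries and the 3302 genes tested in both tables, with levels in CPM over the shared genes. Cdk9 had 28.4 and 35.7 CPM in DXp, 71.2 and 53.3 CPM in DXp_DXm, 295.6 and 192.8 CPM in WT_clone, and 182.3, 186.3 and 155.6 CPM in WT_EV. Both wild-type groups lay above both deletions. With TMM scaling every WT_clone library also lay above every WT_EV library. By share of the shared counts, without that scaling, WT_clone replicate 2 at 0.01957% lay below every WT_EV library, at 0.01962% or more.

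Cdk9 fell in both deletions against WT_clone, with log2 changes of -2.93 in DXp (SE 0.33, interval -3.65 to -2.21, edgeR adjusted p = 0.00016) and -1.97 in DXp_DXm (SE 0.32, interval -2.68 to -1.26, edgeR adjusted p = 0.00174), in 2 of 2 libraries each. Of the genes tested, 40.2% were called in DXp against WT_clone and 25% in DXp_DXm against WT_clone. Both calls held with offsets, at -1.93 and -1.34, where 14.4% and 6.01% of genes were called, and the adjusted p ranged up to 0.00569 and 0.0337 over the alternatives. These comparisons reuse the deletion libraries by which Cdk9 was chosen, so only the WT_clone side is independent of the choice. Between WT_clone and WT_EV the difference was 0.48 (SE 0.29, interval -0.17 to 1.13, edgeR adjusted p = 0.222), where 30.6% of genes were called. With library totals this difference was 0.02.

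Ccnt2 had 2005 and 1417 CPM in DXp, 1299 and 2475 CPM in DXp_DXm, 696.3 and 918.0 CPM in WT_clone, and 370.4, 415.6 and 592.2 CPM in WT_EV. The 4 deletion libraries lay above the wild-type ones, with WT_clone in between. Ccnt2 rose in DXp against WT_clone by 1.08 (SE 0.37, interval 0.27 to 1.90, edgeR adjusted p = 0.04) and in DXp_DXm against WT_clone by 1.23 (SE 0.37, interval 0.41 to 2.04, edgeR adjusted p = 0.0365). With offsets the values were 0.01 (edgeR adjusted p = 1) and 0.48 (edgeR adjusted p = 0.39), and library totals gave 0.86 in DXp (edgeR adjusted p = 0.094). The DXp call also ended without WT_EV replicate 1, WT_EV replicate 2, DXp replicate 1 or WT_clone replicate 1, at adjusted p between 0.0504 and 0.188, and the DXp_DXm call without WT_EV replicate 2, DXp_DXm replicate 2 or WT_clone replicate 1, between 0.0553 and 0.248 (edgeR). WT_clone against WT_EV gave 0.81 (SE 0.34, interval 0.07 to 1.56, edgeR adjusted p = 0.0851), and -0.03 with offsets. The GC pattern was present here too: in DXp against WT_clone the class medians ran 1.25, 0.41, -1.11 and -2.78 in order of increasing GC, and in WT_clone against WT_EV 0.85, 0.54, -0.07 and -0.75.

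**Figure D5:**
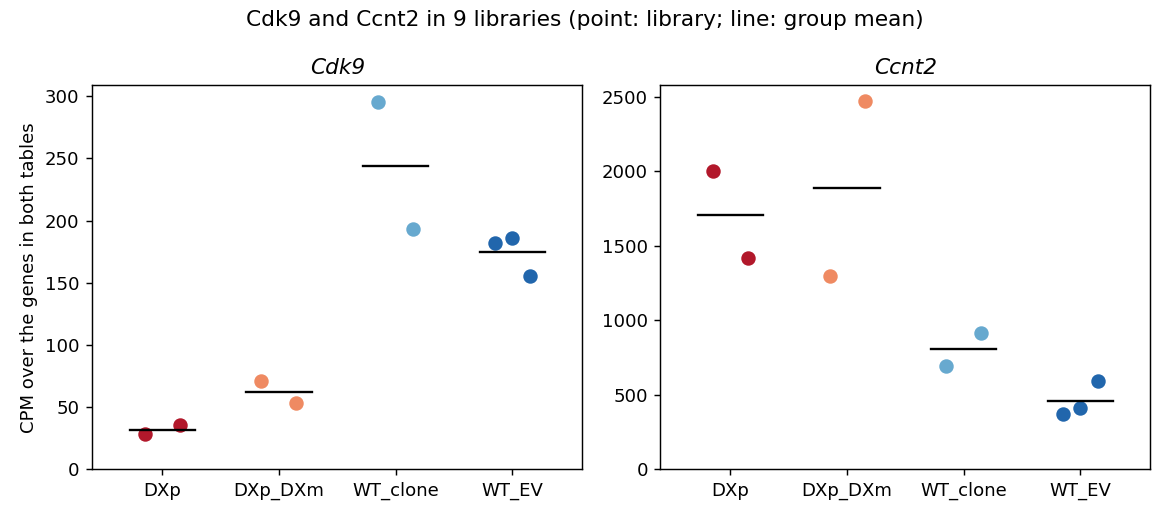
Level of Cdk9 and Ccnt2 in CPM over the genes in both tables, on axes that start at 0, for DXp, DXp_DXm, WT_clone and WT_EV; each point is 1 library and each line the group mean. Cdk9 is at most 71.2 CPM in the deletion libraries and at least 155.6 CPM in the wild-type ones, and Ccnt2 is at least 1299 CPM and at most 918.0 CPM.

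The genes around 7SK and P-TEFb were described from 7 lists with 112 genes, of which 107 were tested. In DXp against WT_EV 36 rose and 50 fell by edgeR at an adjusted p of 0.05, where 32.2% of all genes were called higher and 40.1% lower. In DXp_DXm against WT_EV 35 rose and 48 fell, where 30.9% were called higher and 36% lower. These counts include the 16 short RNAs, most of which passed the filter through WT_EV, so nothing is read from how many genes fell. With offsets these counts were 25 and 36 in DXp, where 25.4% of all genes were called higher and 24% lower, and 19 and 25 in DXp_DXm, where 21% and 20.1% were. The lists were drawn up with earlier results known, and every gene named below against WT_EV as rising or falling had an edgeR adjusted p of at most 0.00525. The median log2 change over the 107 was -1.18 in DXp and -0.84 in DXp_DXm, beside -0.35 and -0.15 over all genes. The 16 short RNAs, with fitted medians of -8.36 and -8.15, are among the 107, so nothing is read from this difference either. With 72.3% and 66.8% of all genes called in the 2 comparisons, a call says little about any 1 gene.

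Most other kinases of the polymerase tail, with their cyclins, were higher before offsets. Of 9 tested, 7 rose and 0 fell in each deletion, beside the shares of all genes given above, with median log2 changes of 1.90 in DXp and 1.15 in DXp_DXm. They include Ccnc, the cyclin of the Mediator kinases, at 2.67 in DXp (SE 0.25) and 2.35 in DXp_DXm (SE 0.25), and Cdk19, a Mediator kinase, at 3.14 (SE 0.29) and 3.43 (SE 0.29). Ccnh, the cyclin of the TFIIH kinase, was at 2.48 in DXp and 2.33 in DXp_DXm, Cdk13 at 1.90 and 1.15, and Cdk8 at 2.01 and 2.10. With offsets 3 rose and 2 fell in DXp, and 4 rose and 1 fell in DXp_DXm, so the one-sided count did not hold. Of the genes named, Cdk19 and Ccnh stayed called in both deletions and Ccnc in DXp_DXm, while Cdk8 and Cdk13 lost their calls in both, with Cdk13 at -0.09 in DXp.

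Of 14 pausing and elongation factors, 2 rose and 9 fell in DXp, and 4 rose and 8 fell in DXp_DXm, with medians of -1.62 and -1.02. Of all genes 32.2% were called higher and 40.1% lower in DXp, and 30.9% and 36% in DXp_DXm. The subunits of the pausing complex NELF fell: Nelfb was at -4.05 in DXp and -2.83 in DXp_DXm, Nelfcd at -3.53 and -3.22, Nelfa at -3.24 and -2.26, and Nelfe at -4.35 and -3.22. Cdc73, a subunit of the PAF elongation complex, rose by 3.20 in DXp and 3.42 in DXp_DXm. With offsets 2 rose and 3 fell in DXp and 3 rose and 2 fell in DXp_DXm, with Nelfe at 0.26 in DXp_DXm. The calls that ended with offsets were those of Nelfcd and Nelfe in DXp (edgeR adjusted p = 0.0775 and 0.242) and of Nelfa, Nelfb and Nelfe in DXp_DXm (edgeR adjusted p = 0.0742, 0.164 and 0.554). Against WT_clone, Nelfb was at -3.77 in DXp and -2.58 in DXp_DXm, and Nelfcd at -2.66 and -2.37, all called. With offsets only Nelfb in DXp stayed called (edgeR adjusted p = 0.0141), and the other 3 had edgeR adjusted p between 0.194 and 0.685. Without WT_clone replicate 1 Nelfcd was at -1.48 in DXp and -1.16 in DXp_DXm, and without DXp_DXm replicate 1 its DXp_DXm call ended.

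The partners that bring P-TEFb to genes were split. Of 12 tested, 4 rose and 4 fell in each deletion, beside the shares of all genes given above. With offsets 7 rose and 3 fell in DXp and 3 rose and 3 fell in DXp_DXm. Mllt1 (ENL), a subunit of the super elongation complex, was at -4.98 in DXp (SE 0.33) and -4.54 in DXp_DXm (SE 0.32), whereas its paralogue Mllt3 (AF9) was at 3.82 (SE 0.43) and 3.22 (SE 0.43). The elongation factor Ell2 was at 3.92 in DXp and 2.48 in DXp_DXm, Ell at -3.42 and -3.52, and Jmjd6, a nuclear hydroxylase, at -3.24 and -1.87. Mllt1 and Mllt3 kept their direction and their calls with offsets, at -1.14 and 1.58 in DXp and at -0.85 and 1.42 in DXp_DXm. Ell lost its calls in both deletions, and Ell2 lost its call in DXp_DXm. Brd3, a bromodomain protein, was at -0.86 in DXp and -1.49 in DXp_DXm against WT_clone, and 0.35 in DXp with offsets.

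Of 15 other proteins that bind 7SK or free P-TEFb from it, 7 rose and 5 fell in DXp and 8 rose and 5 fell in DXp_DXm, beside the shares of all genes given above. With offsets 2 rose and 6 fell in DXp and 4 rose and 2 fell in DXp_DXm, so the balance in DXp turned, with a median of -0.38 against 0.45 without offsets. Ssb (La), which binds new RNA polymerase III transcripts at their 3′ end, was at 2.65 in DXp (SE 0.22) and 2.38 in DXp_DXm (SE 0.22), and stayed called with offsets at 0.96 and 1.02. Syncrip, an RNA-binding protein, was at 2.473 and 1.999, and at -0.06 with offsets in DXp. Trim28 and Smarca4, chromatin regulators that have been tied to the 7SK particle, were at -4.73 and -4.78 in DXp and at -4.00 and -3.52 in DXp_DXm. With offsets they were at -0.92 and -2.21 in DXp and at -0.31 and -1.18 in DXp_DXm, where Trim28 lost its call (edgeR adjusted p = 0.302). Hexim2 fell, at -2.61 in DXp and -3.20 in DXp_DXm, and was at 0.24 and -0.89 with offsets, neither called. In WT_clone against WT_EV, Hnrnpa3 was at 2.22 and Ssb at 1.28, both called.

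The machinery that transcribes Rn7sk was split in each deletion before offsets. Of 24 subunits and promoter factors, 10 rose and 13 fell in DXp and 10 rose and 10 fell in DXp_DXm, beside the shares of all genes given above. Polr1c, a subunit shared by polymerases I and III, was at -3.56 in DXp and -3.66 in DXp_DXm. Snapc4, of the complex that binds the promoters of small RNA genes such as 7SK, was at -3.37 and -3.02, and Snapc2, of the same complex, at -4.53 and -4.79. Pou2f1 (Oct-1), which binds such promoters too, was at 2.48 and 1.87. With offsets 1 rose and 9 fell in DXp and 1 rose and 6 fell in DXp_DXm, so the split did not hold. Of all genes 24% were called lower in DXp and 20.1% in DXp_DXm with offsets. Polr1c stayed called, at -1.06 and -1.69. Snapc4 stayed called in DXp only, at -0.77, and was at -0.68 in DXp_DXm. Snapc2, at -0.50 and -1.15, and Pou2f1, at 0.53 and 0.32, lost their calls in both deletions.

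Primary response genes depend on P-TEFb for their quick induction. Of 17, 5 rose and 4 fell in DXp, and 1 rose and 6 fell in DXp_DXm, against WT_EV, beside the shares of all genes given above. With offsets 9 rose and 2 fell in DXp and 3 rose and 0 fell in DXp_DXm, and the DXp median was 1.83 against -0.98 without offsets. In DXp_DXm against DXp 0 of the 17 were called higher and 1 lower by edgeR, and none with offsets. Fos, a subunit of the factor AP-1, had 181.0 and 170.4 CPM in DXp, 2.65 and 3.38 CPM in DXp_DXm, and 1.91, 0.970 and 10.8 CPM in WT_EV. Fosb, its paralogue, had 16.5 and 29.6 CPM in DXp, 0.746 and 0.550 CPM in DXp_DXm, and 0.450, 0.675 and 2.46 CPM in WT_EV. Both were high in DXp only among these 3 groups. Fosb was the 1 gene of the 107 called in DXp_DXm against DXp, at -5.14 (SE 0.71, edgeR adjusted p = 0.0388), and Fos was at -5.86 (SE 0.88, edgeR adjusted p = 0.059). The Fosb call ended without WT_EV replicate 1 or any 1 of the 4 deletion libraries, at edgeR adjusted p of up to 0.245 and log2 changes between -5.54 and -4.66, and with offsets (edgeR adjusted p = 0.0513).

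Egr2 and Egr3, which encode zinc-finger factors and are named after their values were seen, were called higher in DXp too, at log2 changes of 3.599 and 4.70, at mean levels of 3.56 and 1.05 CPM in DXp, against 0.2996 and 0.040 CPM in WT_EV. Egr1 averaged 576.8 ± 301.6 CPM in DXp and 30.0 ± 49.4 CPM in WT_EV and was not called (edgeR adjusted p = 0.105). Mcl1, a survival factor, was at 1.40 in DXp and 1.38 in DXp_DXm, and Junb, another AP-1 subunit, at -4.49 and -6.29. Ier2 was at -4.66 and Nr4a1, a nuclear receptor, at -2.68 in DXp_DXm. With offsets Junb was at 0.25 in DXp and -1.65 in DXp_DXm, Ier2 at -0.45 and Nr4a1 at 0.20 in DXp_DXm, none of them called, while Mcl1 stayed called at 1.61 and 1.28.

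The genes whose pattern over the 7 libraries was most like that of Rn7sk, by the root mean square difference of centred log2 CPM, were Hist1h4a, Hist1h1a, Hist1h3e, Hist1h4h and Hist2h3b, at 1.33 to 1.68. All 5 are replication-dependent histone genes, whose mRNAs end without a poly(A) tail. They had at most 2 counts in any deletion library and passed the filter on low counts through WT_EV. The match was made to the values by which Rn7sk was chosen, so this likeness is a description only. Hist1h4a had 0 and 1 counts in DXp, 0 and 1 in DXp_DXm, and 13930, 11725 and 19201 in WT_EV. Among the genes most like Cdk9 were Idh3b, Vkorc1, Gle1 and Prpf6, at 0.102 to 0.117, with exons of 47.2 to 53.6% GC against 50.5% for Cdk9. Gle1 had 247 and 358 counts in DXp, 776 and 485 in DXp_DXm, and 1069, 1396 and 895 in WT_EV.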

How the data were processed

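Total RNA from mouse XEN cells was sequenced in 9 libraries. Per the submitters' processing notes, the tools were FastQC, STAR 2.7.9a and featureCounts 2.0.1 on GRCm38 (mm10), and the authors deposited raw counts per gene. The handling of multi-mapping reads and of strand is not stated there. The main table has 7 libraries and 55401 genes. The WT_clone table was held in part, with 11512 genes in whole lines and 1 incomplete line dropped. Symbols (55141 genes), GC content, exon lengths and the 7SK sequence came from GENCODE M21.

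Genes passing filterByExpr were fitted across groups with edgeR 4.0.16 (robust quasi-likelihood test, TMM scaling, Benjamini-Hochberg adjustment, threshold 0.05): 15331 genes over 7 libraries and 3302 over all 9, with a biological coefficient of variation of 33.7% and 39.3%. CPM values use TMM-scaled totals. Offsets for GC content and length were lowess fits (span 0.3). Alternatives were DESeq2 1.42.0, library totals, TMM on protein-coding genes, no filter, a replicate block and leaving out each library. R 4.3.3 (limma 3.58.1), Python 3.11.15 (numpy 2.4.6, pandas 2.3.3, scipy 1.17.1, matplotlib 3.10.9) and blastn 2.17.0 were used. The fits were tested on simulated data with less spread and fewer changed genes than these data. That test therefore does not gauge the error of the fits here. Precision is set by group sizes of 2 or 3 and by library totals of 14352719 to 29335803 counts in the main table.

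The members and lists were chosen with earlier results of these data known. Named genes were the 7 members and, from each list, up to 4 called genes per comparison with the lowest p and a mean of at least 2 CPM, any listed short RNA, and the 5 genes closest in pattern to Rn7sk and to Cdk9; Hexim2, Egr1, Egr2, Egr3 and the values of named genes in the other deletion were added after values were seen. The title index and the replicate tag of the DXp libraries disagree, and the replicate tag was used. Some genes that the rule names are not reported here.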

Additional observations from a re-analysis of the deposited data

Results flagged for a closer look

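Fosb, a primary response gene, differed between the deletions by a test of the difference itself: DXp_DXm against DXp was -5.14 on the log2 scale (SE 0.71, edgeR adjusted p = 0.0388), lower in 2 of 2 libraries. Leaving out single libraries gave -5.54 to -4.66, with edgeR adjusted p between 0.00519 and 0.245, and with offsets it was -5.38 (edgeR adjusted p = 0.0513).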

How the results depend on the processing

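Offsets for GC content and length moved most results. They took Mepce to 0.048 in DXp and 0.38 in DXp_DXm and Ccnt1 to -0.28 in DXp_DXm, all against WT_EV. They took Rn7sk to -0.19 in DXp_DXm against DXp, and Ccnt2 to -0.025 in WT_clone against WT_EV. All of these values crossed 0, and all their intervals included 0. Offsets also turned the sign of Syncrip (-0.062), Cdk13 (-0.094) and Junb (0.25) in DXp against WT_EV. The sign turned too for Nelfe (0.26) and Nr4a1 (0.20) in DXp_DXm against WT_EV, and for Brd3 (0.35) and Ssb (-0.36) in DXp against WT_clone. Genes called with offsets were 6280 against 10243 in DXp_DXm against WT_EV, 32 against 68 in DXp_DXm against DXp, 474 against 1329 in DXp against WT_clone and 198 against 824 in DXp_DXm against WT_clone. Of the 7 genes, 1 of 2 stayed called against WT_clone with offsets for each deletion, and 1 with library totals for DXp.

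In DXp_DXm against DXp, 1167 genes were called by DESeq2 and 1436 with no filter, and Ccnt1 was the 1 member called in each. Without 1 library, 2 (without DXp replicate 2) to 480 (without WT_EV replicate 3) genes were called there, 552 to 1057 in WT_clone against WT_EV (main 1011), 692 to 1344 in DXp against WT_clone and 415 to 949 in DXp_DXm against WT_clone, with 1 to 2 members called in each of the last pair. Lowest were those without WT_EV replicate 2, DXp replicate 1 and DXp_DXm replicate 2 in turn. In DXp_DXm against DXp, Rn7sk ran from -0.85 to 0.81 and Ccnt2 from -0.33 to 0.53, lowest without DXp_DXm replicate 2. With no filter 1 member, Ccnt2, was called in WT_clone against WT_EV. The cause was not tested.

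Whether replicate numbers pair the samples was not settled. By the replicate tag, same-numbered DXp_DXm and DXp libraries had a correlation of deviations of -0.201, and by the title index of 0.201. Over the shared genes, same-numbered WT_clone libraries had 0.248 with DXp_DXm and -0.01 with DXp by the replicate tag. The replicate block called 92 genes in DXp_DXm against DXp and changed no member's call. A crossed block, which numbers DXp by the title index and was chosen after seeing the data, called 1573 genes there, with 1 member, Ccnt1. Library totals moved the median of all genes from -0.35 to -0.83 in DXp and from -0.15 to -0.48 in DXp_DXm against WT_EV. With 7 and 9 counts, depth limits any comparison of Rn7sk between the deletions.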
